A study of Mus musculus with 36 samples.

Results

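The mouse submandibular gland transcribed 8 claudin genes that are described here: Cldn1, Cldn3, Cldn4, Cldn5, Cldn7, Cldn8, Cldn10 and Cldn12, of 29502 genes in the 26 Drop-seq tables and 46407 genes in the bulk tables. They were chosen by name, to cover epithelium and vessels, and the tables hold 15 further genes named Cldn. The question was at which level each claudin was present in each cell type and whether that level differed between control and tumor-forming glands. All mice were C57BL/6. Control mice carried K14-Cre, in which the keratin 14 promoter drives Cre recombinase in basal epithelium, and the R26-EYFP reporter. Double-mutant mice carried, on top of both alleles, a floxed β-catenin gain-of-function (GOF) allele and a floxed Bmpr1a loss-of-function (LOF) allele, and formed squamous cell carcinoma of the gland. Glands were dissociated, sorted by FACS and fixed in methanol before Drop-seq, with 6 control and 7 double-mutant glands at each of postnatal day 40 (P40) and P90. Glands of 4 further mice at P70 (2 control, 2 double-mutant) were profiled with antibody tags (CITE-seq), and bulk RNA-seq covered a single gland of each genotype, the control at P70 and the double mutant at P100. Since K14-Cre acts in basal epithelium, vessels, immune cells and other non-epithelial cells of a double-mutant gland are outside the lineage in which the alleles are designed to recombine. Fewer cells of a type and less claudin RNA per cell cannot be told apart in a whole gland.

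Claudins are small membrane proteins that cross the membrane several times and form the strands of tight junctions between neighbouring cells. Some members seal the space between cells and others form pores in it, which sets how salt and water pass between saliva and tissue. Cldn1, Cldn3, Cldn4, Cldn7 and Cldn8 are known mainly as sealing claudins of epithelia, with CLDN4 and CLDN8 studied as partners in renal collecting duct. Cldn10 encodes pore-forming claudins and is made from alternative first exons, Cldn5 is the main claudin of blood vessel endothelium, and Cldn12 is an atypical member.

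In mm10, Cldn4 (5:134945119-134946934, minus strand) and Cldn3 (5:134986214-134987472, plus strand) lie 39.3 kb apart, with no other gene of the bulk annotation between them. Cldn7 is at 11:69964779-69967885 on the plus strand, Cldn10 at 14:118787908-118875489 on the plus strand and Cldn12 at 5:5489537-5514958 on the minus strand. Cldn1 (16:26356642-26371841, minus strand), Cldn5 (16:18776847-18778260, plus strand) and Cldn8 (16:88560828-88563183, minus strand) lie on chromosome 16. The 250 bases upstream of 11 RefSeq starts were read for 7 of 8 members (GRCm38.p6, 5′ to 3′ on the strand of the gene). Shown here are the windows of Cldn4, Cldn3, Cldn7 and Cldn10. The log2 levels of Cldn4, Cldn3 and Cldn7 correlated across cell types (Pearson r of 0.86 to 0.95), while Cldn10 had another pattern. Capitals mark the E-box letters CAGGTG or CACCTG and the GC-box letters GGGCGG or CCGCCC, that is, each motif on both strands.

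Cldn4, chr5:134946935-134947184: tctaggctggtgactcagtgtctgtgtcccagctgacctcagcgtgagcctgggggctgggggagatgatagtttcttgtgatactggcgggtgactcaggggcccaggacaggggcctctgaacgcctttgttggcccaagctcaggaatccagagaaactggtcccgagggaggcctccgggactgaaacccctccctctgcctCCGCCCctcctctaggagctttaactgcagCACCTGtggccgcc
Cldn3, chr5:134985964-134986213: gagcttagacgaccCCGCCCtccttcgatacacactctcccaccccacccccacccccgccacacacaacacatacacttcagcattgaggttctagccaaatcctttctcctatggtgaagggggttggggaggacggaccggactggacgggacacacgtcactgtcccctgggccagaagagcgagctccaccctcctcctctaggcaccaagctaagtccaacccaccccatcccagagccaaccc
Cldn7, second start, chr11:69965171-69965420: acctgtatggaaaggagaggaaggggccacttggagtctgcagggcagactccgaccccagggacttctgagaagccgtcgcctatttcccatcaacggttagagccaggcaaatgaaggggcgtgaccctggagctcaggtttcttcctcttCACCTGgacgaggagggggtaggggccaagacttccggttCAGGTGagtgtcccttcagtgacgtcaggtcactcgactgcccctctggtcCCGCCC
Cldn10, second start, chr14:118854700-118854949: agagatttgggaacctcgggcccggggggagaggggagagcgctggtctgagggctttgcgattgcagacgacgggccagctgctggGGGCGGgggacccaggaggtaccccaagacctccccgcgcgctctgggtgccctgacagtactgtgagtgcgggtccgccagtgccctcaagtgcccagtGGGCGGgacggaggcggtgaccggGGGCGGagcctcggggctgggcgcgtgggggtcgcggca

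The Cldn4 window held 1 E-box and 1 GC box, the Cldn3 window 1 GC box and no E-box, the Cldn7 window 2 E-boxes and 1 GC box, and the Cldn10 window 3 GC boxes and no E-box. The windows of the first starts of Cldn7 and of Cldn10, not shown, held neither motif. Of 32851 promoter windows of the same length, 17.2% held the E-box letters and 32.7% the GC-box letters. Neither the grainyhead-like letters AACCNGGTT, present in 0.24% of windows, nor TATAAA, present in 12.4%, occurred in any of the 11 member windows, where both strands were searched. These matches are letters in the sequence, and binding was not measured.

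The 26 Drop-seq tables held 26987 barcodes, of which 23346 passed the filters on cells, with 606 to 1209 cells and 650301 to 6994504 UMIs per gland. A UMI (unique molecular identifier) counts 1 captured RNA molecule at its 3′ end. The median was 2062 UMIs per cell in control and 1151 in double-mutant glands. At most 1 barcode was shared by any pair of libraries, and 14 barcodes occurred in more than 1 library. The cells formed 29 clusters, found with all claudin genes left out, and 19978 cells fell into 17 marker-defined types, while 6 clusters stayed unnamed. Each type name below means cells like that type by its markers. Of the double-mutant libraries, male replicate 1 at P40 and female replicate 5 at P90 had sex-linked transcripts against their labels, and female replicate 4 at P90 was left out of the subclustering by the study. Both libraries that went against their labels came from the same batch, and whether they were exchanged, which would exchange their stages too, was not tested. Values without these libraries are given for the genotype and stage comparisons.

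Cldn4 was the duct claudin with the highest levels, and its RNA was almost missing from acinar cells. Levels are UMIs per 10000 UMIs of a cell type in a gland, as mean ± SD over glands with at least 10 such cells. The Klk1+ duct-like cells, which make the secreted protease kallikrein, held 14.6 ± 5.39 (n = 26 glands, 7.08 to 27.4). Egf+ duct-like cells (granular duct cells that store growth factors) held 12.3 ± 6.70 (n = 13), Clu+ luminal-like cells 11.7 ± 5.43 (n = 10) and ductal progenitor-like cells 10.5 ± 5.37 (n = 23). Smgc+/Esp4+ duct-like cells held 8.34 ± 4.66 (n = 25). Ucma-led basal-like cells held 9.11 ± 6.28 (n = 17) and Chil1-led basal-like cells 6.32 ± 2.54 (n = 12), and cells like cancer stem cells (CSC-like) 5.15 ± 2.48 (n = 9). The Duoxa2+ duct-like cells had 28.5 in 1 gland and 11.4 in another, the only 2 glands with 10 such cells. Acinar-like cells held 0.26 ± 0.57 (n = 26) and Dcpp1+ luminal-like cells 0.21 ± 0.52 (n = 14). T/NK-like cells, which should lack the gene, held 0.75 ± 1.41 (n = 15), and the acinar and Dcpp1+ values lay under this background.

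In shares of cells, 69.4% of Klk1+ duct-like cells had a Cldn4 UMI at a median of 1282 UMIs per cell, against 3.43% of T/NK-like cells at 594.5. After each cell was thinned to 500 UMIs and shallower cells were left out, the shares were 47.3% and 4.46%. Acinar-like cells, at a median of 4000 UMIs, had a Cldn4 UMI in 3.20% of cells, and in 0.88% after thinning. Duct types together held 79.8% of all 15048 Cldn4 UMIs, basal-like cells 7.27% and acinar-like cells 1.90%.

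Cldn3 and Cldn7 followed Cldn4 at lower levels, with the highest means in Clu+ luminal-like cells among the types with 3 or more glands. Only double-mutant glands had 10 or more Clu+ cells, while the other duct types come from both genotypes. Cldn3 stood at 4.45 ± 2.46 per 10000 in Clu+ luminal-like (n = 10), 4.11 ± 1.85 in Smgc+/Esp4+ duct-like (n = 25), 3.23 ± 1.201 in Klk1+ duct-like (n = 26) and 2.90 ± 1.11 in ductal progenitor-like cells (n = 23). It was low in both basal-like clusters, with 0.33 in the Ucma-led and 0.77 in the Chil1-led cells, where Cldn4 was high. Cldn7 stood at 3.92 ± 1.72 (n = 10) in Clu+ luminal-like, 2.93 ± 1.57 in progenitor-like, 2.30 ± 1.46 in CSC-like (n = 9) and 2.05 ± 1.19 in Klk1+ duct-like cells. In the 8 glands with both types, Cldn7 was 4.03 in Clu+ luminal-like and 4.59 in progenitor-like cells, and higher in the Clu+ cells in 2 of the 8, so that the order of the means turned within glands. T/NK-like cells held 0.08 UMIs per 10000 of Cldn3 and 0.10 of Cldn7.

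Among types with 3 or more glands, Cldn8 had its highest mean in ductal progenitor-like cells, named by Ascl3, Foxi1 and proton pump subunit genes, at 1.51 ± 0.74 per 10000 (n = 23). The Duoxa2+ duct-like cells had 3.62 and 0.69 in their 2 glands. Smgc+/Esp4+ duct-like cells held 1.15 ± 0.98 (n = 25), Ucma-led basal-like cells 1.03 ± 1.29 (n = 17) and Klk1+ duct-like cells 0.96 ± 0.43 (n = 26). No Cldn8 UMI was counted in the T/NK-like glands with 10 cells or more, and 57.1% of all 1650 Cldn8 UMIs lay in duct types.

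Cldn10 had another distribution, with higher means in acinar-like cells than in Klk1+, progenitor-like and Egf+ duct-like cells. Acinar-like cells held 3.08 ± 1.18 per 10000 (n = 26), Dcpp1+ luminal-like cells 4.03 ± 1.86 (n = 14) and an unnamed cluster led by the mucin gene Muc19 10.1 ± 3.04 (n = 14). Klk1+ duct-like cells held 0.92 ± 0.68 (n = 26), progenitor-like 0.42 ± 0.59 (n = 23) and Egf+ duct-like 0.28 ± 0.26 (n = 13), and all 3 lay under the 1.04 ± 1.19 of immune-like cells (n = 24), while T/NK-like cells held 0.73 ± 0.94. The Smgc+/Esp4+ duct-like cells, at 3.59 ± 1.51 (n = 25), and the Clu+ luminal-like cells, at 3.09 ± 1.25 (n = 10), held Cldn10 beside high Cldn4, as did the Chil1-led basal-like cells, at 2.55 ± 1.89 (n = 12). Acinar-like and Dcpp1+ cells together held 71.9% of the 23192 Cldn10 UMIs.

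**Figure D1:**
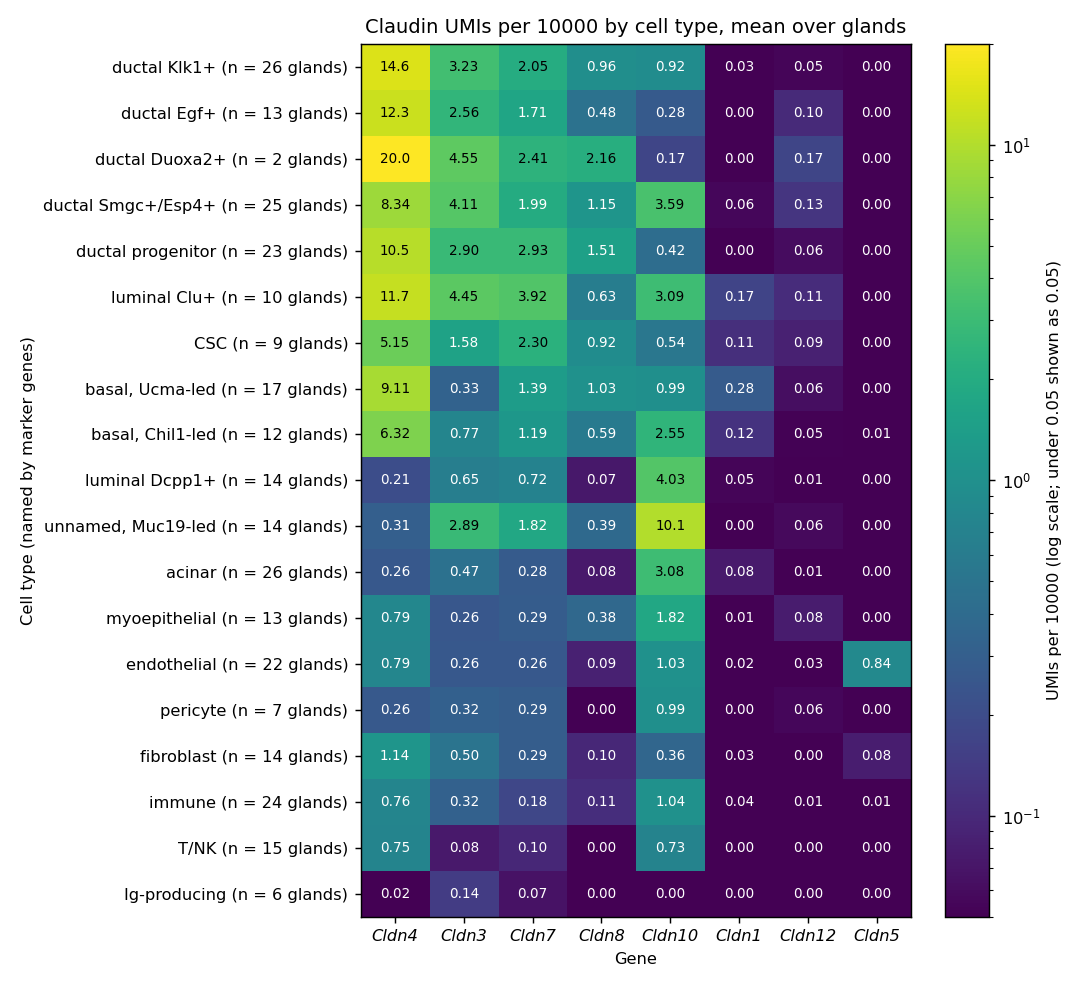
Mean UMIs per 10000 over glands (colour, log scale, and number in each cell) of the 8 claudins (columns) in 18 marker-named groups of cells (basal-like cells as 2 clusters) and the unnamed Muc19-led cluster (rows, with the number of glands). Cldn4 is bright in duct and basal rows, at 14.6 in Klk1+ duct-like cells, Cldn10 is bright in the Muc19-led row at 10.1, and Cldn5 stands above 0.1 in the endothelial row alone, at 0.84.

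Since acinar RNA is abundant in these suspensions, Cldn10 was set against the summed UMIs of 10 acinar markers in each type. Acinar-like cells held 1.93 Cldn10 UMIs per 1000 acinar marker UMIs (95% Poisson interval 1.90 to 1.97, counting error only). The ratio was 1.82 (1.40 to 2.34) in T/NK-like and 2.03 (1.46 to 2.74) in progenitor-like cells, whose intervals hold the acinar value. It was 2.28 in immune-like and 2.26 in endothelial-like cells. It was 4.43 (3.92 to 4.98) in Klk1+ duct-like, 6.47 (6.0 to 6.96) in Smgc+/Esp4+ duct-like and 20.6 (17.5 to 24.0) in Chil1-led basal-like cells. Dcpp1+ luminal-like cells, at 34.4, and the Muc19-led cluster, at 118, lay farthest from the acinar ratio. Apart from T/NK-like and progenitor-like cells, each type named here lay above the acinar ratio by more than the counting intervals. Immune-like and endothelial-like cells did so too, so a ratio above the acinar one does not by itself show that a type makes Cldn10.

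**Figure D2:**
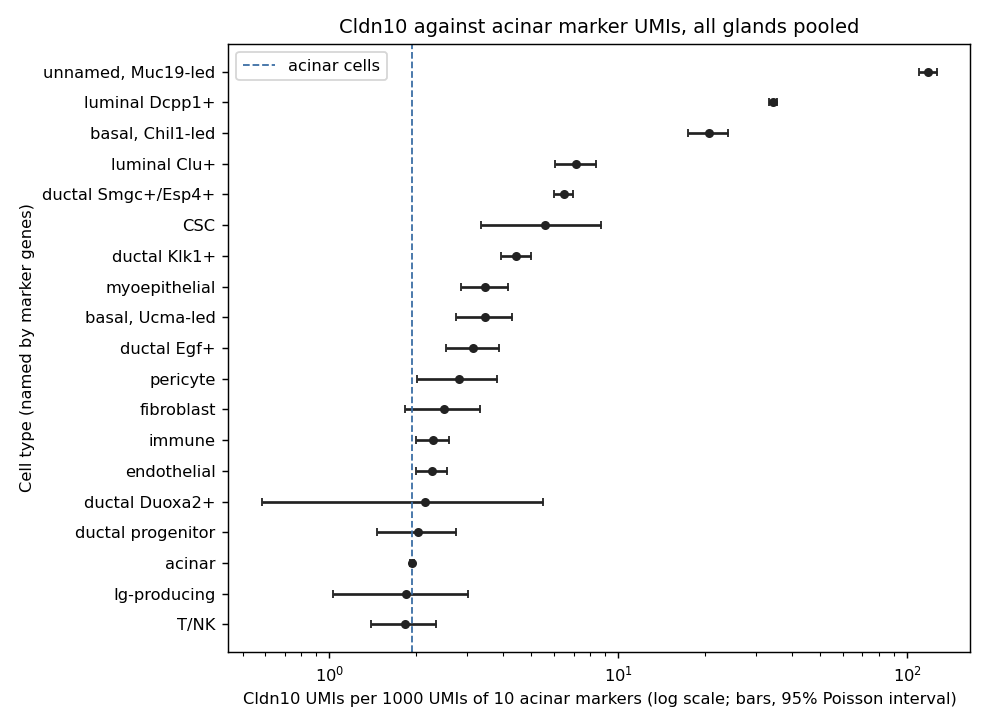
Cldn10 UMIs per 1000 UMIs of 10 acinar markers (x axis, log scale) in each cell type (y axis) over all glands pooled, with 95% Poisson intervals; the dashed line marks acinar-like cells at 1.93. T/NK-like, Ig-producing and progenitor-like cells sit on that line, and the Muc19-led cluster lies far right at 118.

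Within the Smgc+/Esp4+ duct-like cells Cldn10 was counted less often in cells with a Cldn4 UMI than in cells without one, as a description with no test. Of 1136 cells, 405 had a Cldn4 UMI, 410 a Cldn10 UMI and 95 both. A Cldn10 UMI was found in 23.5% of cells with Cldn4 and in 43.1% of cells without it, although the cells with Cldn4 were deeper (median 1319 against 1131 UMIs). The shares were 7.81% against 14.8% in Chil1-led basal-like cells (medians of 957.5 and 511 UMIs), 8.06% against 11.1% in Klk1+ duct-like cells (1436 and 1003 UMIs) and 49.2% against 63.9% in acinar-like cells, where the cells with Cldn4 were shallower (3261 and 4016.5 UMIs). In Clu+ luminal-like cells the shares were 22.5% and 19.6%, with medians of 1157.5 and 640 UMIs. In Ucma-led basal-like cells they were 9.73% and 7.19% (1041 and 804 UMIs). In Dcpp1+ luminal-like cells they were 67.6% and 70.2% (3415 and 4036 UMIs). Cells were pooled over glands, sexes and genotypes, and depth was not matched in these shares. In control Smgc+/Esp4+ duct-like cells, mean Cldn4 was 5.64 ± 4.01 in 6 female and 8.34 ± 6.22 in 6 male glands. Mean Cldn10 was 4.33 ± 1.53 and 2.96 ± 0.61. The part of such differences between glands in the shares was not tested.

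Cldn5 marked the vessels and was thinly sampled. Endothelial-like cells held 60 of 65 Cldn5 UMIs in all cells (92.3%), at 0.84 ± 0.99 per 10000 (n = 22 glands), and 42 of 1002 endothelial-like cells, or 4.19% (exact 95% interval 3.04 to 5.62), had a UMI. In the same cells the platelet-endothelial adhesion gene Pecam1 was found in 50.6% and the vascular cadherin gene Cdh5 in 28.7%. No Cldn5 UMI was counted in 5785 acinar-like cells. Control endothelial-like cells had a Cldn5 UMI in 5.56% of 306 cells (3.27 to 8.75) at a median of 939.5 UMIs. Double-mutant ones had it in 3.59% of 696 cells (2.34 to 5.26) at 595.5 UMIs. These cells were pooled over glands and depth was not matched, so the intervals do not compare the genotypes.

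Cldn1 and Cldn12 had low levels in every type. Cldn1 reached 0.28 ± 0.61 per 10000 in Ucma-led basal-like cells (11 UMIs in 17 glands), and 284 of its 494 UMIs lay in acinar-like cells at 0.08 per 10000. Cldn12, with 180 UMIs in all, did not exceed 0.17 in any type, and no order of types is read from it.

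Neighbouring types in the order of each claudin's levels mostly differed by less than the spread of their difference over glands. For 128 neighbouring pairs of named types, the paired difference over shared glands was set against its own SD. Pairs with no UMI in either type in these glands, among them most pairs of Cldn5, could not pass. Cldn5 in endothelial-like over fibroblast-like cells did not pass either, at 0.58 ± 0.85 (n = 14 glands). The difference was larger than its SD in 4 pairs. These were Cldn4 in Egf+ duct-like over Clu+ luminal-like cells (by 4.90 ± 1.64, n = 3 glands) and in CSC-like cells over fibroblast-like cells (by 3.53 ± 2.65, n = 8), Cldn7 in progenitor-like over CSC-like cells (by 2.51 ± 2.04, n = 7), and Cldn8 in Egf+ duct-like over myoepithelial-like cells (by 0.43 ± 0.40, n = 6).

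Across 17 named types, the genes whose log2 mean level was most like that of a claudin were compared among 7429 genes. Cldn4 went with Cxcl17 (Pearson r = 0.97), Lad1 and Tfcp2l1, and Cldn3 with the luminal keratin genes Krt18 (r = 0.96) and Krt8 and with Tuft1. Cldn7 went with Epcam (r = 0.97), Krt18 and Elf3, and Cldn8 with Krt7 (r = 0.94) and Rab25. Cldn10 went with the acinar water channel gene Aqp5 (r = 0.87), Lrrc26 and Pip. Cldn5 went with Adcy4, Robo4 and Btnl9, where 1 type sets the correlation. Cldn1 went with Krtdap, Dmkn and Kctd14, and Cldn12 with Avpi1, Dsg2 and Knop1. Among the members, Cldn3 and Cldn7 correlated at r = 0.95, and Cldn4 with Cldn10 at r = 0.00. The types share the same glands and libraries, and these values are descriptions.

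Per gland, levels are given as UMIs of a gene per 1000000 UMIs of the gland (CPM). Cldn10 had 342 ± 94.3 CPM in 12 control glands (lowest 198, median 343, highest 538) and 219 ± 79.4 in 14 double-mutant glands (96.9, 207 and 394). Of the double-mutant glands, 7 lay under the lowest control gland and none above the highest, and the groups overlapped. Cldn4 had 262 ± 203 in control glands (43.5, 171 and 715) and 255 ± 176 in double-mutant glands (67.2, 211 and 761), and its highest gland was 17.5-fold above its lowest. Cldn3 varied least, with 104 ± 25.8 in control (59.0, 107 and 163) and 103 ± 30.4 in double-mutant glands (56.9, 105 and 180), and a 3.16-fold range. Cldn7 had 50.5 ± 17.4 in control (25.01, 48.2 and 76.5) and 84.7 ± 42.7 in double-mutant glands (24.4, 76.1 and 176), of which 7 lay above the highest control gland and 1 under the lowest.

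The remaining members were rarer and their genotype groups overlapped. Cldn8 had 25.99 ± 15.3 CPM in control (8.58 to 57.5) and 28.7 ± 10.1 in double-mutant glands (13.1 to 49.1). Cldn1 had 6.91 ± 2.03 and 6.32 ± 3.77, with no UMI in 1 double-mutant gland. Cldn12 had 2.22 ± 1.34 and 3.74 ± 1.66. Cldn5 had 0.86 ± 0.81 and 2.50 ± 2.84, with no UMI in 2 control and 3 double-mutant glands, beside a share of endothelial-like cells of 2.82 ± 2.52% in control and 5.74 ± 3.37% in double-mutant glands.

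**Figure D3:**
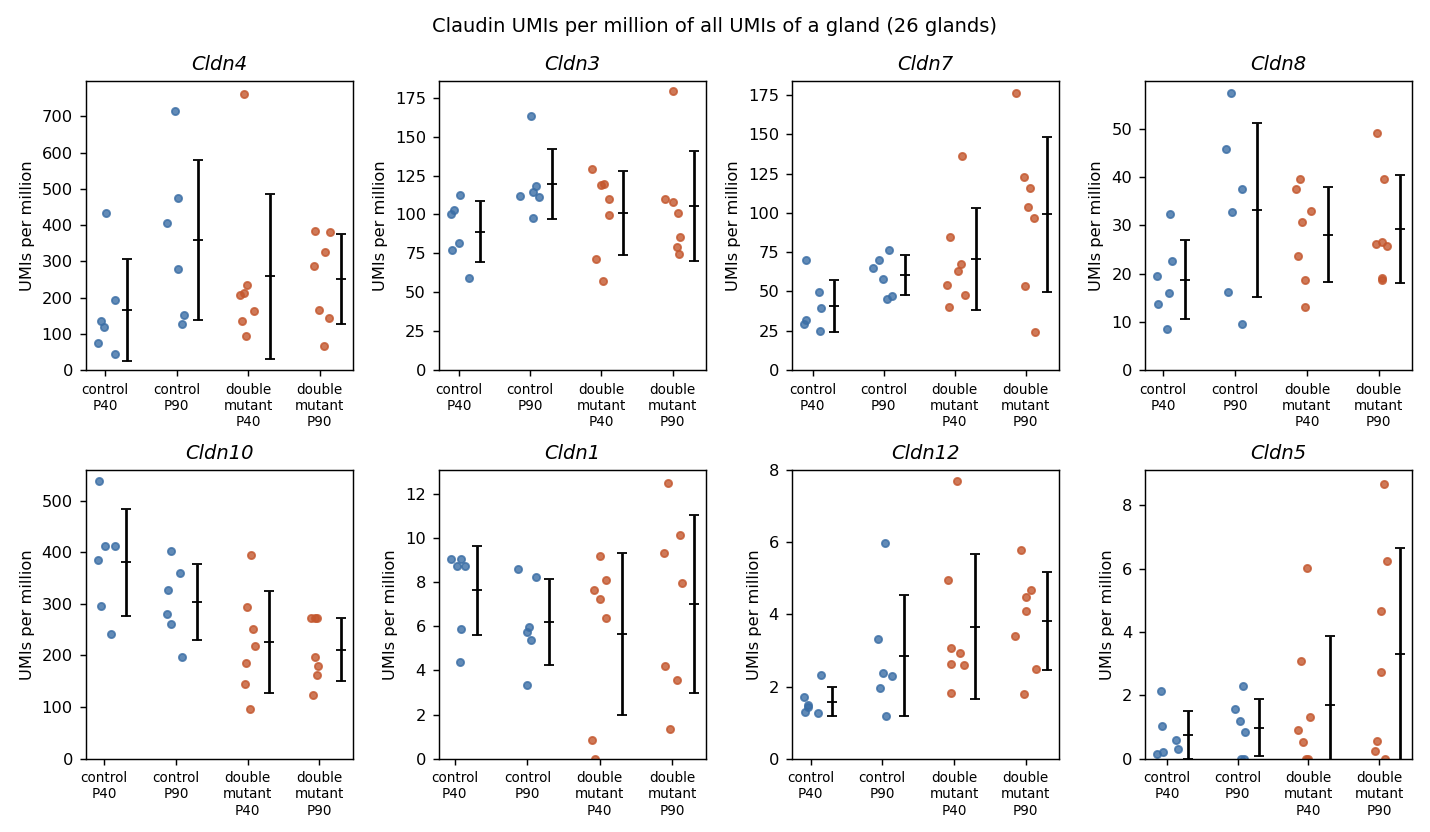
CPM (y axis, from 0) for each claudin in the 4 groups of Drop-seq glands (6, 6, 7 and 7 glands; 1 point a gland, bar with mean and SD). Cldn10 points of double-mutant glands lie lower than those of controls with overlap, while 1 double-mutant P40 gland stands alone in Cldn4 at 761.

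By genotype over all 26 glands, with sex and stage as terms, Cldn10 was the 1 member called. It fell by 1.11 on the log2 scale (SE 0.31, edgeR quasi-likelihood test with Benjamini-Hochberg adjustment, adjusted p = 0.0133). Of the 10488 genes tested, 22% were called in either direction, 14.4% higher and 7.56% lower, against 1 of 6 members that passed the filter on low counts, whereas Cldn5 and Cldn12 did not pass it. The other 5 tested members had log2 changes of -0.51 for Cldn3 (SE 0.20, adjusted p = 0.0625), -0.37 for Cldn8 (SE 0.18, adjusted p = 0.137), -0.63 for Cldn1 (SE 0.31, adjusted p = 0.141), -0.56 for Cldn4 (SE 0.34, adjusted p = 0.225) and 0.06 for Cldn7 (SE 0.16, adjusted p = 0.828) by the same edgeR test, and these do not show that the levels were alike. The median change was -0.54 over the 6 members and 0.02 over all genes tested.

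The scaling set the sign of several of these changes. With library totals in place of TMM factors the median of all genes moved to 0.68, and 99.1% of called genes were higher in double-mutant glands, against 65.6% under TMM. Cldn10 fell under both, by 0.63 on the log2 scale with library totals (edgeR adjusted p = 0.00975). Cldn7 rose by 0.76 with library totals (SE 0.24, edgeR adjusted p = 0.0133), near that shifted median, and Cldn3, Cldn4 and Cldn8 turned to 0.01, 0.04 and 0.22.

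**Figure D4:**
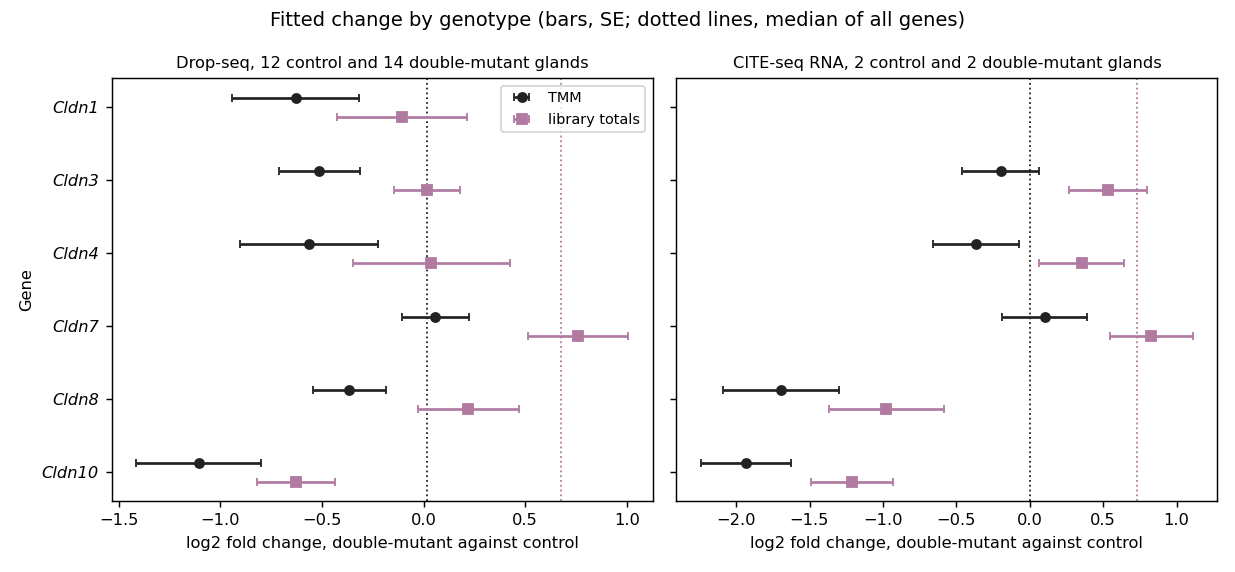
Fitted log2 fold change of double-mutant against control (x axis, bars 1 SE) of the members that passed the filter (y axis) with TMM factors (circles) and library totals (squares), in Drop-seq (left) and CITE-seq RNA (right) glands; dotted lines mark the median of all genes. Cldn10 lies left of both medians in both panels, at -1.11 and -1.93 under TMM, while Cldn7 lies on them.

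With the Drop-seq batch as a further term Cldn10 had a log2 change of -1.002 and was no longer called (edgeR adjusted p = 0.21), in a fit that called 1.98% of 15183 genes, against 22% without that term. The 5 batches that hold both genotypes had 1 to 3 glands a genotype. In 5 of 5 of them mean Cldn10 CPM was lower in double-mutant glands, with 445 against 252 in batch 14 and 411 against 196 in batch 13 as the widest gaps and 268 against 245 in batch 12 as the narrowest. Mean CPM was higher in 5 of 5 for Cldn7, Cldn5 and Cldn12, and in 4 for Cldn8. In batches 12 and 13 all controls were at P40, while the double-mutant glands were at P40 and P90. Neither stage nor sex was matched in these batch means. CPM uses library totals, under which the median log2 change of all genes was 0.68. With the batch term under TMM the log2 change of Cldn7 was -0.11. Without both libraries that went against their sex labels Cldn10 fell by 0.97 on the log2 scale (edgeR adjusted p = 0.0348), and without female replicate 4 at P90 by 1.124 (adjusted p = 0.0173).

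The share of acinar-like cells moved with genotype, from 31.7 ± 15.8% of cells in control to 17.7 ± 14.2% in double-mutant glands. The summed level of 10 acinar markers, none of them at 0 in any group, was 128381 CPM in control and 95485 CPM in double-mutant glands. The unnamed Gm12873-led cluster, which carried the acinar markers Bhlha15, Lpo, Pip and Car6, held 0.74 ± 1.10% of control and 6.16 ± 6.54% of double-mutant cells, and the unnamed Epha7-led cluster, with Prol1 and Car6 among its leading genes, 4.82 ± 9.07% and 0.29 ± 0.37%. Of the Epha7-led cells, 46.5% came from 1 library. The unnamed Snord118-led cluster, with Bhlha15, Lpo, Pip and Oit1, held 3.17 ± 3.59% of control and 3.17 ± 2.01% of double-mutant cells. The unnamed Mucl1-led cluster, with Prol1, Car6 and Oit1 among its leading genes, held 1.80 ± 1.54% and 0.50 ± 0.48%. Some clusters with acinar markers thus differed in share by genotype, and the Snord118-led cluster did not. None of these clusters entered the acinar-like share or the comparison within acinar-like cells. How far these set the change of Cldn10 in a whole gland was not tested. Within cell types, Cldn10 was therefore compared over glands with at least 10 cells of a type.

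In acinar-like cells Cldn10 stood at 3.97 ± 0.75 per 10000 in 12 control glands (2.85, 3.92 and 5.18 as lowest, median and highest) and at 2.33 ± 0.93 in 14 double-mutant glands (0.88, 2.13 and 4.26). In 13 of 14 double-mutant glands the level was under the control median, and in 10 under the lowest control gland. The level fell by 0.75 on the log2 scale (SE 0.18, edgeR adjusted p = 0.0327), and 1.13% of the 3180 genes tested in these cells were called, 0.881% higher and 0.252% lower. The call was lost with log2 cell number as a term (edgeR adjusted p = 0.20), with batch as a term (0.452) and without both libraries that went against their sex labels (0.0804), with log2 changes of -0.52, -0.99 and -0.70. Cldn7 in the same cells had a log2 change of 0.56 (SE 0.27, adjusted p = 0.497).

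Cldn10 also fell in immune-like cells, by 2.85 on the log2 scale (SE 0.46, edgeR adjusted p = 0.000461), where 10.1% of 1690 genes were called, 5.86% higher and 4.2% lower. Levels were 1.93 ± 1.41 in 10 control and 0.41 ± 0.33 per 10000 in 14 double-mutant glands. The 10 acinar markers moved with it in the same cells, from 781 ± 512 per 10000 in control (144 to 1713) to 196 ± 184 in double-mutant glands (21.0 to 712). Their part in the change was not tested. With log2 cell number as a term the change was -1.40 and was not called (edgeR adjusted p = 0.303).

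In the other types tested no member was called. Clu+ luminal-like, CSC-like, fibroblast-like, pericyte-like, Ig-producing and Duoxa2+ duct-like cells had too few glands of a genotype and were not tested. Cldn10 had a log2 change of -0.95 in Klk1+ duct-like cells (SE 0.33, edgeR adjusted p = 0.199, 1.3% of 1773 genes called, 0.677% higher and 0.62% lower), -0.66 in Dcpp1+ luminal-like cells (SE 0.31, adjusted p = 0.688, 0.528% called, 0.377% higher and 0.151% lower) and -0.41 in Smgc+/Esp4+ duct-like cells (SE 0.23, adjusted p = 0.373, 2.27% called, 1.7% higher and 0.567% lower). Cldn7 in progenitor-like cells had a log2 change of 0.68 (SE 0.26, adjusted p = 0.258, 1.25% called, 0.249% higher and 0.996% lower), with 11 of 12 double-mutant glands above the control median. Cldn4 had -0.66 in all basal-like cells (SE 0.34, adjusted p = 0.225, 11.3% called, 8.77% higher and 2.54% lower) and -0.32 in the Ucma-led cells alone (SE 0.34, edgeR adjusted p = 0.938, 0% called). In Egf+ duct-like cells 4 members were tested and 0.0314% of genes called. Endothelial-like, myoepithelial-like and T/NK-like cells (0.0977%, 0% and 0.59% called) had no member past the filter, so that Cldn5 was not tested in its own cell type; without the filter its log2 change there was -0.54 (SE 0.48, edgeR adjusted p = 0.769).

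**Figure D5:**
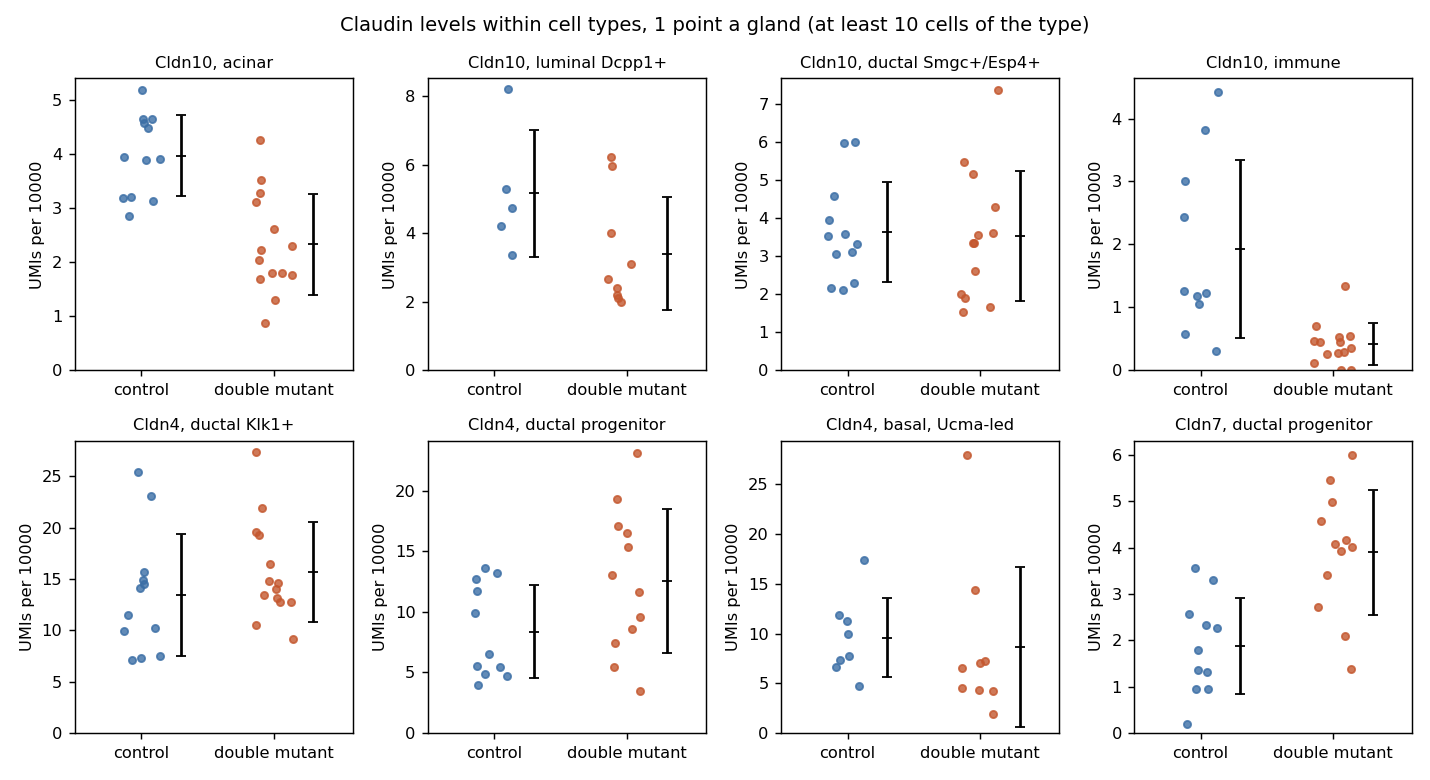
UMIs per 10000 (y axis, from 0) of 3 claudins in named cell types, control against double-mutant, 1 point a gland with at least 10 cells of the type and a bar with mean and SD. Cldn10 in acinar-like cells lies lower in double-mutant glands (mean 2.33 against 3.97), while Cldn4 in Klk1+ duct-like cells overlaps throughout.

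At P40 alone no member was called, with 0.255% of 10213 genes called by edgeR (0.245% higher, 0.00979% lower). At an unadjusted p under 0.05, 1 of 6 members passed. Cldn10 had 380 ± 103 CPM in 6 control and 227 ± 98.9 in 7 double-mutant glands, with a log2 change of -1.40 (SE 0.46, edgeR adjusted p = 0.122) that was called without double-mutant replicate 3 (-1.93, adjusted p = 0.0348). The share of all genes called lay between 0.0649% and 5.12% with 1 gland left out and was 5.12% in that same fit. Without replicate 1, which went against its sex label, the change was -1.27 (adjusted p = 0.202), with 0.142% of genes called. At P90 4.9% of 9094 genes (3.56% higher, 1.34% lower) and no member were called, with 3 of 6 members at an unadjusted p under 0.05. Cldn10 had 304 ± 73.7 and 211 ± 61.2 CPM, with a log2 change of -0.82 (SE 0.37, edgeR adjusted p = 0.20) that was called without double-mutant replicate 7 (-1.15, adjusted p = 0.0213), and Cldn4 359 ± 222 and 251 ± 125 CPM, with a log2 change of -1.10 (SE 0.42, edgeR adjusted p = 0.131). The share of all genes called lay between 2.18% and 16.9% with 1 gland left out, and was 16.9% without replicate 7. Without replicate 5, which went against its sex label, 2.52% of genes were called and the changes were -0.65 for Cldn10 (adjusted p = 0.312) and -1.12 for Cldn4 (adjusted p = 0.202). Without replicate 4, 7.28% were called and the changes were -0.80 (adjusted p = 0.224) and -1.03 (adjusted p = 0.153). The genotype by stage interaction called no member and 0.00876% of 11420 genes, with Cldn4 at -1.13 (SE 0.65, adjusted p = 0.91) and Cldn10 at 0.58 (SE 0.61, adjusted p = 0.984), and with no member at an unadjusted p under 0.05. Without both libraries that went against their sex labels these were -0.71 and 0.64, and without female replicate 4 at P90 -1.07 and 0.57, with no member called.

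From P40 to P90 within double-mutant glands no gene of 9857 was called (0%) and 5.95% had an unadjusted p under 0.05, none of them a member. DESeq2 called 3 genes. The log2 change of Cldn4 was -0.22 and turned to 0.12 without both libraries that went against their sex labels, and that of Cldn10 was -0.26 and -0.20, and no member was called without these or without female replicate 4 at P90. Within control glands 10.9% of 9099 genes were called (9.25% higher, 1.6% lower) and no member, with 2 of 6 members at an unadjusted p under 0.05. Cldn4 had 166 ± 141 CPM at P40 and 359 ± 222 at P90 (log2 change 0.93, SE 0.47, edgeR adjusted p = 0.266), Cldn10 380 ± 103 and 304 ± 73.7 (-0.80, SE 0.28, adjusted p = 0.088), and Cldn1 7.62 ± 2.004 and 6.21 ± 1.95 (-0.67, SE 0.24, adjusted p = 0.0961). In the same glands Egf+ duct-like cells made up 4.39 ± 4.91% of cells at P40 and 16.9 ± 16.1% at P90, acinar-like cells 42.8 ± 12.7% and 20.6 ± 9.72%, and Dcpp1+ luminal-like cells 13.6 ± 11.5% and 1.56 ± 3.66%, and their part in these changes was not tested. Without control replicate 1 at P40 Cldn10 was called (edgeR adjusted p = 0.0112), and without control replicate 2 at P40 both Cldn10 (0.0225) and Cldn1 (0.0476). Stage and batch cannot be told apart in control glands, since no batch held controls of both stages.

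Between sexes in control glands 1% of genes (0.736% higher in males, 0.264% lower) and no member were called by edgeR, with 1 of 6 members at an unadjusted p under 0.05. Cldn1 had 7.29 ± 2.38 CPM in 6 males and 6.53 ± 1.75 in 6 females (log2 change 0.60, SE 0.23, adjusted p = 0.311), and Cldn8 17.6 ± 9.03 and 34.4 ± 16.3 (-0.44, SE 0.24, adjusted p = 0.473).

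In the 4 CITE-seq glands at P70 Cldn10 had 233 and 258 CPM in control and 123 and 85.0 in double-mutant glands. It fell by 1.93 on the log2 scale (SE 0.31, edgeR adjusted p = 0.0112), beside 13.7% of 10058 genes called, 9.24% higher and 4.47% lower. The summed level of the 10 acinar markers in these glands was 127106 and 128165 CPM in control and 61497 and 41244 CPM in double-mutant glands, and its part in the fall was not tested. Without double-mutant replicate 2 the Cldn10 change was -1.64 and was not called (edgeR adjusted p = 0.0518). Such a fit leaves 1 gland in a group, which is assumed to vary like the other group. Cldn8 had 17.2 and 23.1 CPM in control and 10.9 and 8.95 in double-mutant glands, from 51 UMIs at most, and fell by 1.70 (SE 0.39, edgeR adjusted p = 0.0301). This call was lost under DESeq2 (adjusted p = 0.127), with library totals (edgeR adjusted p = 0.0924), and without double-mutant replicate 1 (0.0971), double-mutant replicate 2 (0.131) or control replicate 2 (0.137), each with 1 gland left in a group. Cldn3 had 60.1 and 49.4 CPM in control and 75.3 and 80.6 in double-mutant glands, and Cldn7 32.6 and 29.9 against 58.1 and 50.7, so that both were higher per UMI while their log2 changes under TMM were -0.20 (SE 0.26, adjusted p = 0.629) and 0.10 (SE 0.29, adjusted p = 0.83). Cldn4 had 65.8 and 48.5 against 79.9 and 62.7 CPM, with a log2 change of -0.37 (SE 0.30, edgeR adjusted p = 0.426). Both double-mutant mice were female and 1 of 2 controls was male, so that sex was not fitted.

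Bulk RNA-seq gave the order of levels per transcript length, as TPM (counts divided by exon length and scaled to a fixed sum), in 1 library a genotype and with no replicate check. In the control gland Cldn10 stood at 53.3 TPM (5430 counts), Cldn8 at 14.5, Cldn3 at 13.1, Cldn4 at 10.2, Cldn1 at 5.98, Cldn7 at 5.06, Cldn12 at 1.53 and Cldn5 at 0.49 (27 counts). In the double-mutant gland Cldn10 stood at 47.8, Cldn3 at 16.3, Cldn8 at 9.25, Cldn4 at 8.30, Cldn1 at 7.77, Cldn7 at 4.99, Cldn12 at 1.02 and Cldn5 at 0.27 TPM (15 counts). The CPM ratio of double-mutant over control was 0.63 for Cldn8 (95% counting interval 0.58 to 0.69), 0.55 for Cldn5 (0.27 to 1.08), 0.66 for Cldn12 (0.54 to 0.80), 0.80 for Cldn4, 0.88 for Cldn10, 0.97 for Cldn7, 1.23 for Cldn3 and 1.28 for Cldn1. Of 13276 genes with at least 10 counts in both libraries, 32.7% lay past 1.5-fold and 25.8% were lower. Cldn8, Cldn12 and Cldn5 were past it too. With TMM factors they were not, at 0.77, 0.81 and 0.68, whereas Cldn1 and Cldn3 were, at 1.57 and 1.51. The Cldn10 ratio was 1.08 with TMM factors, so its direction turned with the scaling, and age differed between both glands (P70 and P100).

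Genes that work with claudins were read from lists, in the fit over all 26 glands. Of 25 tested tight junction scaffolds and partners 6 fell and 1 rose under TMM, beside 7.56% of all genes lower and 14.4% higher. Epcam, an epithelial surface protein that binds Cldn7, had 355 ± 94.3 CPM in control and 343 ± 67.1 in double-mutant glands and fell by 0.65 on the log2 scale under TMM (edgeR adjusted p = 0.00523) but had a change of -0.05 with library totals. Marveld3, Magi3 and Crb3, a membrane partner, a scaffold and a polarity protein of the junction, fell by 0.63, 0.46 and 0.61 under TMM, and their changes with library totals were -0.04, 0.11 and -0.09. With library totals 9 of the 25 were higher and none lower, beside 53.2% of all genes called, 99.1% of them higher.

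Of 16 adherens junction and desmosome genes 3 rose and none fell under TMM, beside 14.4% of all genes higher. With library totals 12 were higher, beside 53.2% of all genes called, 99.1% of them higher. The 3 that rose under TMM were the cadherin genes Cdh1 (0.62, edgeR adjusted p = 0.0351) and Cdh3 (1.57, adjusted p = 0.0266) and the nectin gene Pvrl1 (1.49, adjusted p = 0.0122). Of 10 epithelial transcription factors Elf5, a factor of luminal secretory cells, fell by 0.67 (adjusted p = 0.0381) and had -0.15 with library totals. Of 3 tested factors known to repress junction genes, Zeb2 rose by 2.20 (adjusted p = 0.000469) and Tcf4 by 1.04 (adjusted p = 0.00153), both also with library totals. Of 10 endothelial junction genes Pecam1 (1.46, adjusted p = 0.0149), Cdh5 (1.70, adjusted p = 0.0229) and Sox17 (1.35, adjusted p = 0.0266) rose, beside a summed endothelial marker level of 107 CPM in control and 463 CPM in double-mutant glands, whose part was not tested. Immune-like cells made up 5.53% of control and 16.04% of double-mutant cells, and the part of these cells in the levels of Zeb2 and Tcf4 was not tested. Of the other claudin-named genes 1 was tested, Cldnd1, with a log2 change of -0.38 (edgeR adjusted p = 0.118). In the CITE-seq glands 2 of 21 tight junction partners fell under TMM (Cgnl1 by 1.49 and Marveld3 by 1.53) and Zeb2 rose by 1.73. There 4.47% of all genes were called lower and 9.24% higher. Of 13 adherens junction and desmosome genes Perp fell by 1.14, and of 6 endothelial junction genes Foxo1 fell by 1.48. Of 9 epithelial transcription factors Klf4 rose by 1.44, and Ehf, Grhl2 and Grhl1 fell by 1.28, 1.76 and 1.78. With library totals none of these genes that fell was called.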

How the data were processed

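Drop-seq UMI count tables of 26 glands, CITE-seq UMI count tables of 4 glands and featureCounts tables of 2 bulk libraries were used as the authors deposited them. The authors aligned reads with STAR to mm10 and annotated them with GENCODE M7, chose Drop-seq barcodes at the knee of the barcode curve, and counted bulk reads with featureCounts 1.6.0. The antibody tag tables were not used here. The members and gene lists were chosen with earlier results of these data known.

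Cells with at least 100 genes and under 15% mitochondrial UMIs were kept. CITE-seq cells also had to hold under 2500 genes, and 2535 of 3095 CITE-seq barcodes were kept. The Drop-seq cells were clustered with scanpy 1.11.5 and leidenalg 0.10.2 (2000 variable genes, 30 components, resolution 1.0) with every Cldn gene left out. Names required 3 or more genes of a marker list to be 2-fold higher in the cluster than elsewhere and present in 10% of its cells. A cluster stayed unnamed where more of its leading genes belonged to another list. Cells of a cluster with myoepithelial and pericyte markers took their names from the clusters at resolution 1.5. Scrublet marked 136 cells (0.583%) as doublets, which were kept, and an alternative left them out. Free RNA was not removed.

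Sums of UMIs over each gland, and over the cells of each type in glands with at least 10 of them, were tested with edgeR 4.0.16 (R 4.3.3), with TMM factors, a filter on low counts, the quasi-likelihood test and Benjamini-Hochberg adjustment over all genes tested, called at 0.05. The scripts were tested on simulated data. Alternatives were DESeq2 1.42.0, other scalings, no filter, a replicate or batch term and left-out glands. Labels give 1 gland a library, so p-values measure the spread between these libraries. Exact Poisson and binomial intervals are at 95% and cover counting error only. Named genes are the 8 claudins, the 3 genes most like each across types (among genes with at least 0.5 UMIs per 10000 in a type), and up to 5 genes a list with the lowest adjusted p. Values of 2 genes that this rule names are not reported here.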

Additional observations from a re-analysis of the deposited data

Results flagged for a closer look

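Of 32 sets of 1 claudin in 1 group of Drop-seq glands, 3 held a gland whose gap to the nearest other gland exceeded the 95% limit of Dixon's test, which chance passes in about 1 of 20 sets. Cldn4 had 761 CPM in double-mutant P40 replicate 1, and the next gland had 235. That library is one of those whose sex-linked transcripts went against the label. Cldn3 had 163 CPM in control P90 replicate 6, where the next gland had 118, and 180 CPM in double-mutant P90 replicate 1, where the next gland had 110.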

How the results depend on the processing

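Over 1219 fits of a member under an alternative, 1087 kept direction and side of the threshold, 99 took the other direction (0 of them past the threshold in either fit), 22 were called in the alternative alone and 11 in the reported fit alone. In all glands, where 1 member was called, 2 were called under DESeq2, with library totals and with the replicate block, and 0 with the batch term, beside 26.5%, 53.2%, 29.5% and 1.98% of all genes against 22%. Leaving out 1 gland gave 1 to 2, with Cldn3 added without double-mutant P40 replicate 3 or 4 or P90 replicate 1 or 7. With library totals Cldn3, Cldn4 and Cldn8 turned to 0.015, 0.038 and 0.22, and in CITE-seq Cldn3 and Cldn4 to 0.53 and 0.35. Cldn7 turned to -0.11 with the batch term and to -0.085 without both libraries that went against their sex labels, and lay between -0.076 and 0.10 with 1 gland left out, and between -0.094 and 0.26 in CITE-seq. At P40, where 0 were called, 1 was called under DESeq2, with no filter and with the replicate block (6.67%, 6.27% and 5.31% of genes against 0.255%), and 0 to 1 with a gland left out. At P90, also 0, it was 1 with no filter, 1 with the replicate block, 2 with the batch term (5.34%, 8.54% and 9.17% against 4.9%) and 0 to 1 with a gland left out. For stage in controls (0) it was 1 under DESeq2, 2 with no filter and 0 to 2 with a gland left out. In CITE-seq (2) it was 1 under DESeq2, 1 with library totals and 0 to 2 with a gland left out. Within types (2) it was 0 with log2 cell number, 1 with the batch term and 1 without both libraries that went against their sex labels. Cldn10 in Smgc+/Esp4+ duct-like cells turned to 0.050 with the batch term. In bulk, 2 members were higher in the double mutant by CPM and 4 with TMM factors, where Cldn10 turned to 1.08. Types called by a marker score kept the leading type of 5 of 8 members. The causes were not tested.

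Replicate numbers did not pair the glands: over 37 same-numbered pairs the median correlation of deviations was 0.07 (-0.34 to 0.51), and 15 were over 0.1. With the replicate block Cldn1 between sexes turned to -0.26, Cldn3 was called in all glands and Cldn10 at P40 and at P90. Depth limits Cldn5 (65 UMIs), Cldn12 (180 UMIs) and Cldn1 (494 UMIs).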
